A study of Mus musculus with 2 samples.

Results

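Calu, Pank1, Cldn12, Cpeb4, Ptges3, Tmed2, Commd5, Pgap2 and Acp1 are 9 genes with few reads in regenerating liver of KO mice, which lack 1 allele of miR-182-5p, and with many reads in that of wild-type (WT) mice. They were chosen on these same read counts, as genes with some of the largest decreases between the libraries, so the size and direction of their difference is a description and carries no test. They are 9 of 34745 genes listed by the authors and of 13561 genes called tested here, which had at least 10 counts over both libraries and were compared at a 2-fold difference without a statistical test.

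Both libraries came from liver of male mice, 8 to 10 weeks old, at day 3 after partial hepatectomy (PH), an operation that removed 70% of the liver and is followed by regrowth of the remnant. The KO group is labelled miRNA-182 KO and, by the study's methods, is heterozygous, so that the other allele remains. The WT group had the same sex, age range, operation and day. Poly(A) RNA was sequenced from 1 library per genotype, and how many mice went into each is not stated. The day is taken from the paper, not from the labels. Sex, age range and the share of liver removed are those of the paper's general methods for PH. With no replicate, the intervals below are exact 95% binomial or Poisson intervals that cover counting error only, and the spread between mice was not measured.

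The 9 genes serve different tasks in a cell. Calu, Tmed2 and Pgap2 act along the secretory pathway, in which newly made proteins fold in the endoplasmic reticulum (ER), are packed into vesicles and pass through the Golgi. Cldn12 and Commd5 belong to families of tight junctions and of endosomal sorting, Pank1 makes coenzyme A, Cpeb4 controls translation, Ptges3 assists the chaperone HSP90 and Acp1 removes phosphate from tyrosine. In the liver, hepatocytes secrete most plasma proteins and use coenzyme A in fat, bile acid and ketone metabolism.

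The KO library held 13247497 counts and the WT library 13163348. Genes of the mitochondrial genome (13 listed) held 51.7% of all counts in KO against 31.0% in WT, and libraries were therefore scaled by TMM, which gives a median log2 fold change of 0.00 over the genes tested. Scaling by total counts shifts every log2 fold change down, to a median of -0.60, so a value above 0 but smaller than this shift changes sign on that scale. A difference of at least 2-fold was seen as lower in KO for 1348 genes (9.94% of those tested) and as higher for 1283 genes (9.46%); with total counts it was lower for 3605 genes (26.6%) and higher for 624. Mir182 has no row of its own here, so the genotype was not checked on it. Hepatocyte markers summed to 661024 counts in KO and 1046947 in WT, with 0 of 12 at a count of 0 in either library, 1 of 12 at least 2-fold lower and a median log2 fold change of 0.08. Markers of stellate cells (2 of 10 at least 2-fold lower, median -0.59, 1487 counts in KO and 3309 in WT), of Kupffer cells and macrophages (2 of 8, median -0.30, 1453 and 2896) and of endothelial cells (1 of 8, median -0.42, 946 and 1735) were lower in KO by their medians, with no marker of these lists at 0. Cholangiocyte markers were higher by their median (0 of 6 tested at least 2-fold lower and 2 higher, median 0.40, 2037 counts in KO and 2350 in WT, none at 0), as were the few tested markers of T, NK and B cells (1 of 4 at least 2-fold higher, median 0.25, 42 and 57) and of neutrophils (0 of 3 past 2-fold, median 0.15, 356 and 500), of which 2 of 9 and 3 of 6 listed were at 0 in KO. Of these lists the last 3 have medians below 0 with total counts, as do hepatocyte markers. Erythroid markers had a median of -0.59, with 1 of 5 at least 2-fold lower and 1 higher (911 and 1303), and 1 of 6 listed was at 0 in KO. The part of such shifts in the values below was not tested, and in whole tissue fewer cells of a type and less RNA per cell cannot be told apart.

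All 9 genes lay past a 2-fold decrease, against 9.94% of the genes tested, and since the same contrast chose them nothing is read from that count. Their KO counts ran from 2 to 33 and summed to 124, and their WT counts ran from 202 to 1480 and summed to 6131. The highest KO count was that of Acp1 and the lowest WT count that of Tmed2; that these ranges lie apart was fixed by the choice of the genes. The median log2 fold change of the 9 was -5.37. By the size of the decrease they held ranks 7 (Cldn12), 11 (Ptges3), 20 (Commd5), 36 (Calu), 37 (Cpeb4), 59 (Pank1), 109 (Tmed2), 127 (Acp1) and 208 (Pgap2) among the 13561 genes, so genes with decreases as large lie between them.

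**Figure D1:**
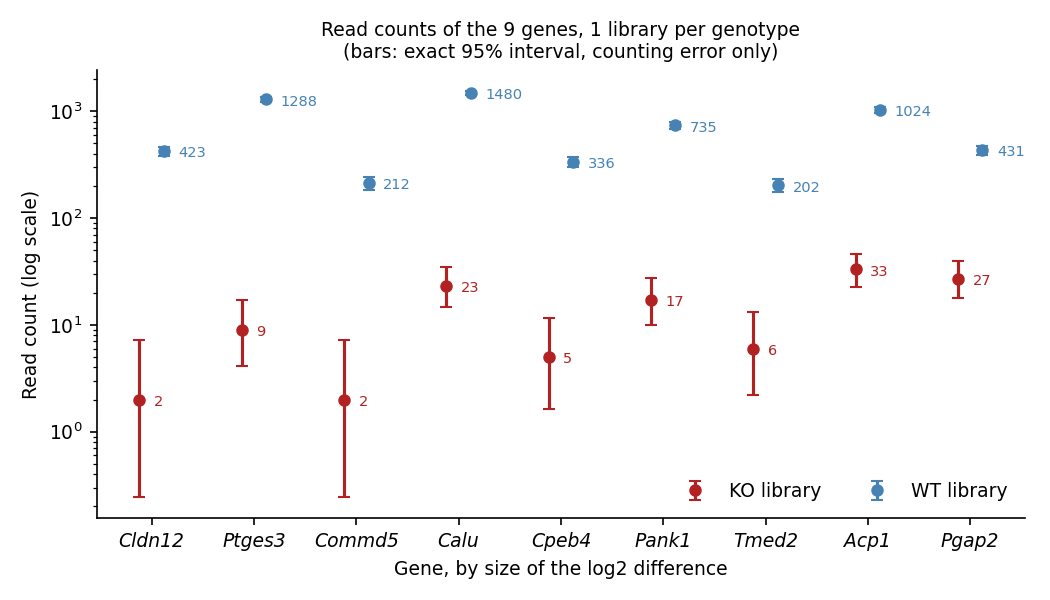
Read counts (log axis) of the 9 genes in the KO library (red) and the WT library (blue), with exact 95% intervals for counting error. KO counts sit between 2 and 33 and WT counts between 202 and 1480, as the choice of the genes requires.

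The sequences shown here are those that bear on the knocked-out miRNA and on the start sites of the genes. The mature miRNA (RefSeq, GRCm38.p6) is given with its seed, bases 2 to 8, in capitals. Its hairpin lies on chromosome 6 at 30165918 to 30165992, minus strand.
mmu-miR-182-5p: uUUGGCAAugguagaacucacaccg

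A match to the seed was searched in the longest annotated 3′ UTR of each gene (GENCODE M21 transcripts), as TTGCCAAA (8mer), TTGCCAA (7mer-m8) or TGCCAAA (7mer-A1), on the transcript strand, with the 8mer containing both shorter motifs. Such a match was found in 3 of the 9 genes, Calu, Pank1 and Pgap2, and in 19.5% of 12494 genes searched, and an 8mer in Pank1 alone of the 9 and in 4.99% of genes. The matching stretches are shown with the match in capitals, because no other seed match was found in the UTRs searched of these 9 genes.
Calu, 7mer-m8, UTR bases 1442 to 1448: catcatcatcatctgTTGCCAActc
Pank1, 7mer-A1, UTR bases 1691 to 1697: ttattgactgcttaaTGCCAAAata
Pank1, 8mer, UTR bases 2841 to 2848: taactgaaaacaagTTGCCAAAatt
Pgap2, 7mer-m8, UTR bases 1028 to 1034: ataaatgtttttcttTTGCCAAcag
The 3 genes with a match had KO counts of 17 to 27 and the 6 without one had KO counts of 2 to 33. Low KO counts were part of the choice of all 9 genes, so nothing is read from these ranges. For Pank1, on the minus strand, the GENCODE M21 locus runs to 34806940, past the 3′ end at 34810894 in the authors' table. Both Pank1 matches may therefore lie outside the region in which its reads were counted. A match is a description of the sequence and does not show that the miRNA binds there.

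Promoters, from 250 bases before to 50 bases after a start site, were given by RefSeq (GRCm38.p6) for 7 of the 9 genes, Calu, Pank1, Cldn12, Cpeb4, Ptges3, Pgap2 and Acp1, with 14 promoters in all. Those of Ptges3, Calu and Acp1, the genes with the highest level per length in WT, are shown with the GC box, GGGCGG or CCGCCC, in capitals.
Ptges3, chr10:128058732-128059031, plus strand: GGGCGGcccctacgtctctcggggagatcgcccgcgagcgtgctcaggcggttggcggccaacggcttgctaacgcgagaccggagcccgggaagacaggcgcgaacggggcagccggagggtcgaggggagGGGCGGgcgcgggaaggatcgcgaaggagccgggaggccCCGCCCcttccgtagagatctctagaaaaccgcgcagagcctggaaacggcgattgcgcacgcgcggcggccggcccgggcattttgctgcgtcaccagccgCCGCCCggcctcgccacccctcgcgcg
Calu, chr6:29347856-29348155, plus strand: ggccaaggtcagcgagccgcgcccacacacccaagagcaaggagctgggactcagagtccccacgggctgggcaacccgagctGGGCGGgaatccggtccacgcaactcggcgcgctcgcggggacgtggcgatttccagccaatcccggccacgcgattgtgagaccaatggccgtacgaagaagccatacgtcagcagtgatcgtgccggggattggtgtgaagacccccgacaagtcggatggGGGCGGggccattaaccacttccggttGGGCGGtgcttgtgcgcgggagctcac
Acp1, chr12:30911563-30911862, minus strand: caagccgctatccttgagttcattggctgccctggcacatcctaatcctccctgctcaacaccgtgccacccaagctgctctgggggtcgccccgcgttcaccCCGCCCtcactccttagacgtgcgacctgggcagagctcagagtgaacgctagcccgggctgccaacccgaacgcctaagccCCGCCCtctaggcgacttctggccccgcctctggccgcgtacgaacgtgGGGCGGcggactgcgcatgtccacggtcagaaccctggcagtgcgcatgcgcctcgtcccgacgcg
These promoters are rich in G and C (73.7% for Ptges3, 66.0% for Calu and 67.0% for Acp1, against a median of 52.7% over 32851 promoters) and hold 4, 3 and 3 GC boxes. The promoters of a gene can overlap, as those of Cldn12 and some of Pgap2 do, so that 1 motif may be counted in several. A GC box was found in 6 of the 7 genes and 11 of the 14 promoters, and in 35.7% of all promoters. The 3 promoters without one were both of Pank1, at 48.0% and 49.7% G and C, and 1 of the 3 of Cldn12, at 45.3%. The TATA box motif, TATAAA or TTTATA, was found in 3 of the 14 promoters, 1 of Pank1 and 2 overlapping ones of Pgap2 that also hold a GC box, and in 13.6% of all promoters. CCAAT or ATTGG was found in 9 of the 14 promoters and in 37.4% of all, CACGTG in 0 of the 14 and in 7.15% of all, and TGACGTCA in 1, a promoter of Pgap2, and in 1.79% of all. All motifs were sought on both strands, and none contains another. The median and shares over all promoters were not matched to genes with as many reads in WT as these. The contrasts are therefore a description, and nothing is read from them.

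Calu encodes calumenin, a calcium-binding protein of the ER and the secretory pathway. It lies on chromosome 6 at 29348069 to 29377110, plus strand (GRCm38 coordinates of the authors' table, as for the other genes). It had 23 counts in KO and 1480 in WT, and an equal scaled level would give 982 in KO. The scaled difference is a log2 fold change of -5.39 (-6.08 to -4.82), 42.0-fold lower in KO. Calu had the highest count of the 9 in WT and was still among the 3 highest in KO.
In the CREC family, to which calumenin belongs, the other 4 genes together had 333 counts in KO and 757 in WT, a log2 fold change of -0.59 (-0.78 to -0.40). Sdf4, which encodes a CREC protein of the Golgi, was at 231 and 590 counts (-0.76, -0.99 to -0.54), where, as below, the KO count comes before the WT count and the log2 fold change of the scaled counts, with its interval where given, follows in parentheses. Rcn1, Rcn2 and Rcn3 (reticulocalbins) had under 100 counts in either library, and Rcn2 was past 2-fold lower with 15 and 47 counts. Calu held 66.2% of the family's counts in WT and 6.46% in KO.

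Tmed2, on chromosome 5 at 124540695 to 124550506, plus strand, encodes a p24 cargo receptor that cycles between the ER and the Golgi in COPI and COPII vesicles. It had 6 counts in KO and 202 in WT, the lowest WT count of the 9. The log2 fold change was -4.39 (-5.94 to -3.33), and the KO level was 4.48% of that in WT (1.62% to 9.92%).
The other TMED genes summed to 4680 counts in KO and 6351 in WT, with a log2 fold change of 0.15 (0.10 to 0.21). Tmed10, the p24 protein that is known to pair with Tmed2 in a complex, was at 751 and 1204 counts (-0.09, -0.22 to 0.04). Tmed9 was at 643 and 1110 counts (-0.20), Tmed5 at 2290 and 2693 (0.36), Tmed4 at 290 and 483 (-0.14), and Tmed7 at 554 and 464 (0.85). Tmed3, at 99 and 267 counts (-0.84, -1.19 to -0.50), and Tmed1, at 44 and 117 (-0.81, -1.35 to -0.31), were the lowest of the rest of the family, and Copb2, of the COPI coat, was at 369 and 882 (-0.66, -0.84 to -0.49). Of 21 genes for p24 proteins, the COPI coat and KDEL receptors other than Tmed2, 0 were past 2-fold in either direction, against 9.94% of genes tested that were lower and 9.46% that were higher; with total counts 5 were lower.

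Pgap2 encodes a Golgi protein that helps to add back a saturated fatty acid to GPI anchors, the lipid tails of some cell surface proteins. It lies on chromosome 7 at 102210208 to 102238567, plus strand. It had 27 counts in KO and 431 in WT. The log2 fold change was -3.39 (-4.02 to -2.84), an interval that overlaps those of Tmed2 and Acp1, and the KO level was 9.44% of that in WT (6.15% to 13.9%).
Pgap1, which acts in the ER on the same lipid, was at 44 and 66 counts (0.01, -0.58 to 0.58), and Pgap3, which removes the fatty acid that is then replaced, at 12 and 15 (0.26). The 26 genes for making and remodelling GPI anchors other than Pgap2 had a median log2 fold change of 0.08. With total counts 6 of them were past 2-fold lower. On the TMM scale 1 was past 2-fold lower (3.85%, against 9.94% of genes tested) and 1 past 2-fold higher (against 9.46%). These were Pigk, the protease subunit of the GPI transamidase, with 97 and 449 counts (-1.61, -1.95 to -1.30), and Pigq, of the enzyme for the opening step of the anchor, with 188 and 59 (2.25, 1.84 to 2.71). Pigp, of the same enzyme as Pigq, was at 159 and 160 counts (0.58), and Dpm1, which makes the mannose donor of the anchor, at 73 and 161 (-0.55).

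Cldn12 encodes claudin-12, a tight junction protein. It lies on chromosome 5 at 5489537 to 5514958, minus strand. It had 2 counts in KO and 423 in WT. The KO level was 0.713% of that in WT, with a counting interval of 0.0860% to 2.59%. On the log2 scale the difference was -6.87 (-10.18 to -5.27). This interval overlaps that of Ptges3, and their order turned with a prior count of 5 (-5.57 for Cldn12 and -6.05 for Ptges3) and with the authors' FPKM (-4.36 and -6.57).
The other claudins summed to 1892 counts in KO and 3020 in WT (-0.08, -0.17 to 0.00). The abundant liver claudins were at 564 and 1048 counts for Cldn1 (-0.30), 1029 and 1353 for Cldn3 (0.20), 153 and 337 for Cldn2 (-0.55) and 114 and 217 for Cldn14 (-0.34). Cgn (cingulin, a tight junction plaque protein) was past 2-fold lower with 176 and 640 counts (-1.27, -1.52 to -1.03), and Cldnd1 was past 2-fold higher with 52 and 11 (2.77). F11r (a junctional adhesion molecule) was at 491 and 1119 counts (-0.60), and Ocln (occludin) at 83 and 187 (-0.58). Of 14 genes of this list other than Cldn12, 1 was past 2-fold lower and 1 higher, with a median of -0.21. The lower share was 7.14%, against 9.94% of genes tested, of which 9.46% were higher. With total counts 4 of the list were lower.

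Commd5 encodes a COMMD protein, a subunit of the complex that recycles membrane proteins from endosomes to the cell surface. It lies on chromosome 15 at 76899910 to 76901305, plus strand, and its locus of 1396 bases is the shortest of the 9. It had 2 counts in KO and 212 in WT. The KO level was 1.42% of that in WT (0.171% to 5.20%), and the log2 fold change was -5.88 (-9.19 to -4.26).
The other COMMD genes summed to 1189 counts in KO and 1915 in WT (-0.10, -0.20 to 0.01). Commd7 was past 2-fold lower with 36 and 145 counts (-1.41, -1.99 to -0.88). Commd3 was at 261 and 310 (0.34), Commd4 at 222 and 355 (-0.08), Commd1 at 202 and 360 (-0.24), Commd9 at 147 and 253 (-0.19), Commd8 at 135 and 177 (0.20), Commd6 at 111 and 169 (-0.01) and Commd10 at 65 and 120 (-0.29). These proteins work with Ccdc22 (85 and 141 counts, -0.14) and Ccdc93 (80 and 127, -0.07). Dscr3, of the retriever part of the same machinery, was past 2-fold lower with 32 and 138 counts (-1.50, -2.12 to -0.95), and Vps29 was at 163 and 349 (-0.50). Thus 2 of 14 genes of the list other than Commd5 were past 2-fold lower (14.3%, against 9.94% of genes tested) and 0 were higher (against 9.46%). Their median was -0.16, and with total counts 4 of the list were lower.

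Pank1 encodes a pantothenate kinase, which phosphorylates vitamin B5 in the step that sets the rate of coenzyme A synthesis. It lies on chromosome 19 at 34810894 to 34879455, minus strand. It had 17 counts in KO and 735 in WT, and an equal scaled level would give 488 in KO. On the log2 scale the difference was -4.81 (-5.63 to -4.15), 28.0-fold lower in KO.
The other pantothenate kinase genes, Pank2, Pank3 and Pank4, summed to 328 counts in KO and 440 in WT (0.17, -0.04 to 0.38). Pank3 was at 150 and 173 counts (0.39, 0.06 to 0.71), Pank4 at 126 and 167 (0.19) and Pank2 at 52 and 100 (-0.35). Pank1 held 62.6% of the counts of the 4 genes in WT and 4.93% in KO. The later enzymes of the pathway were at 187 and 240 counts for Ppcs (0.23), 308 and 400 for Ppcdc (0.21), 259 and 524 for Coasy (-0.42) and 264 and 463 for Dcakd (-0.22). Of the 7 genes of coenzyme A synthesis other than Pank1, 0 were past 2-fold in either direction, with a median of 0.19. Of all genes tested 9.94% were lower and 9.46% higher. With total counts 1 of the 7 was lower and their median was -0.41.

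Cpeb4, on chromosome 11 at 31872211 to 31935634, plus strand, encodes a protein that binds cytoplasmic polyadenylation elements in the 3′ end of mRNAs and controls their translation. It had 5 counts in KO and 336 in WT. The log2 fold change was -5.37 (-7.11 to -4.24), and the KO level was 2.24% of that in WT (0.724% to 5.29%).
Its paralogs Cpeb1, Cpeb2 and Cpeb3 summed to 228 counts in KO and 460 in WT (-0.42, -0.66 to -0.19), with Cpeb2, the one with over 100 counts, at 172 and 346. Among 21 genes of poly(A) tail control other than Cpeb4, 1 was past 2-fold lower, Btg2, an antiproliferative gene that recruits the deadenylase, with 62 and 210 counts (-1.16, -1.60 to -0.75), and 0 were past 2-fold higher. Pan3, of the PAN deadenylase, was at 424 and 320 counts (1.00, 0.79 to 1.21), just under the 2-fold line. Its partner Pan2 was at 1055 and 951 counts (0.74), and Cnot3, of the CCR4-NOT deadenylase, at 443 and 384 (0.80). The median of the list was -0.22. Its lower share was 4.76%, against 9.94% of genes tested, of which 9.46% were higher. With total counts 4 of the list were lower.

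Ptges3, on chromosome 10 at 128058954 to 128077272, plus strand, encodes p23, a co-chaperone that stabilises HSP90 on client proteins and is also named for a prostaglandin E synthase activity. It had 9 counts in KO and 1288 in WT, and an equal scaled level would give 854 in KO. The scaled difference is a log2 fold change of -6.51 (-7.70 to -5.64), 90.9-fold lower in KO.
HSP90 itself was at 4613 and 7558 counts for Hsp90ab1 (-0.12), 1726 and 1627 for Hsp90aa1 (0.68) and 9406 and 11137 for the ER form Hsp90b1 (0.35). Of 19 genes of HSP90 and its co-chaperones other than Ptges3, 1 was past 2-fold lower, Fkbp5, an HSP90-bound immunophilin, with 122 and 370 counts (-1.01, -1.32 to -0.71), and 0 were higher. Nudc was at 155 and 392 counts (-0.74), Unc45a at 362 and 337 (0.69) and Cdc37, the kinase co-chaperone, at 221 and 510 (-0.61). The median of the list was -0.12. Its lower share was 5.26%, against 9.94% of genes tested, of which 9.46% were higher. With total counts 5 of the list were lower. Ptges2, a prostaglandin E synthase that is no paralog of p23, was at 56 and 108 counts (-0.35), and Ptgs1, a cyclooxygenase, at 152 and 179 (0.36).

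Acp1, on chromosome 12 at 30893326 to 30911612, minus strand, encodes the low molecular weight tyrosine phosphatase. It had 33 counts in KO, the highest KO count of the 9, and 1024 in WT. On the log2 scale the difference was -4.35 (-4.91 to -3.86), and the KO level was 4.86% of that in WT (3.33% to 6.87%).
The other genes named as acid phosphatases, which are not close in sequence to Acp1, summed to 1717 counts in KO and 2582 in WT (0.00, -0.09 to 0.09). Among them Acp5 was at 872 and 1309 counts (0.01), Acp6 at 595 and 598 (0.58) and Acp2 at 239 and 659 (-0.87, -1.09 to -0.66). Ptpn1, a tyrosine phosphatase that acts on the insulin receptor, was past 2-fold higher with 170 and 61 counts (2.06, 1.64 to 2.52), and Ptpn9 was at 72 and 192 (-0.82). Of 18 phosphatase genes of the list other than Acp1, 2 were past 2-fold lower, both with under 25 counts in either library, and 2 higher, with a median of 0.09. The lower share was 11.1%, against 9.94% of genes tested, of which 9.46% were higher. With total counts 4 of the list were lower.

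Over the 10 lists, 147 genes were tested that are none of the 9. Of these 9 were past 2-fold lower (6.12%, against 9.94% of genes tested) and 4 past 2-fold higher (2.72%, against 9.46%), with a median log2 fold change of -0.05. With total counts 35 were lower (23.8%, against 26.6%). The share of lower genes in the lists was under that of all genes tested on either scale. At a minimum of 50 counts, however, 766 of 10916 genes were lower, so the background depends on count. The lists were not matched to all genes by count, and nothing is read from the difference.

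**Figure D2:**
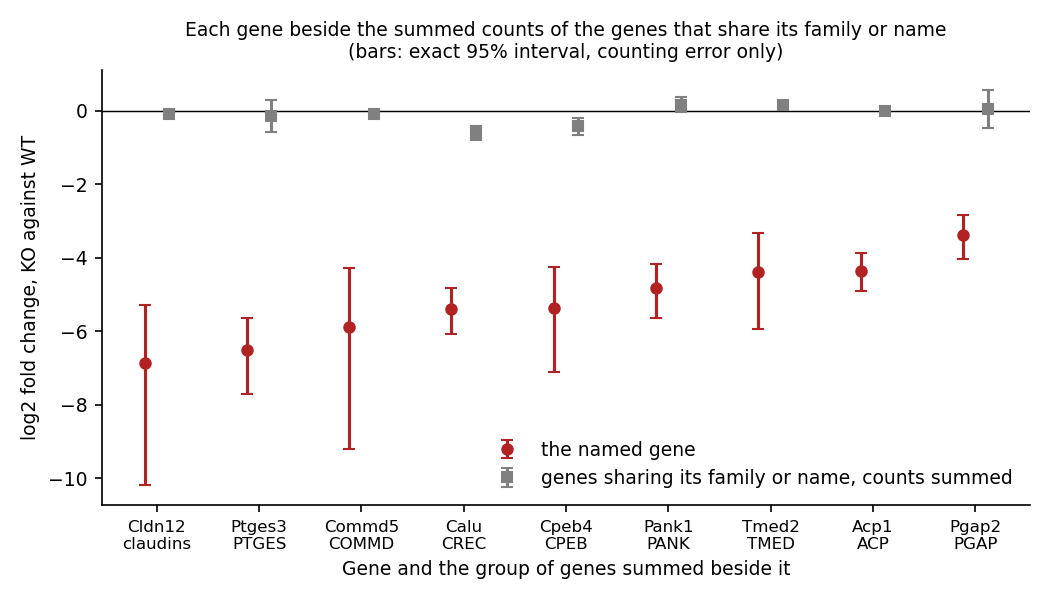
log2 fold change of each of the 9 genes (red) and of the summed counts of the genes that share its family or name (grey), with exact 95% intervals for counting error. The sums lie between -0.59 and 0.17, and the 9 genes between -6.87 and -3.39.

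Levels were compared between genes per length, as scaled CPM per kb of the longest coding transcript. In the WT library the order was Ptges3 (39.7, 37.6 to 41.9), Calu (28.3, 26.8 to 29.7), Acp1 (20.6, 19.4 to 21.9), Commd5 (12.6, 10.97 to 14.4), Pgap2 (12.4, 11.3 to 13.6), Cldn12 (6.95, 6.31 to 7.65), Pank1 (6.11, 5.68 to 6.57), Tmed2 (6.01, 5.21 to 6.89) and Cpeb4 (3.29, 2.95 to 3.66). The intervals of Commd5 and Pgap2 overlap, as do those of Cldn12, Pank1 and Tmed2, and the order within these groups was not tested. The other neighbours in this order have intervals that do not overlap. The Pank1 transcript used here belongs to a GENCODE M21 locus that starts at 34806940, against 34810894 in the authors' table. Its level per length in either library may therefore be too low, and its place in the order is uncertain. In the KO library the levels per length were 0.0496 for Cldn12, 0.0738 for Cpeb4, 0.179 for Commd5, 0.213 for Pank1, 0.269 for Tmed2, 0.418 for Ptges3, 0.662 for Calu, 1.00 for Acp1 and 1.17 for Pgap2. By value Ptges3, the highest in WT, was below Pgap2, Acp1 and Calu in KO, and Pgap2 was the highest there. The KO intervals of Ptges3 (0.191 to 0.794), Calu (0.420 to 0.994), Acp1 (0.689 to 1.41) and Pgap2 (0.773 to 1.71) overlap, however. Overlap of separate intervals does not decide whether counting error covers a difference, so the KO order of these genes is given by value only.
The WT levels per length stood at percentile 53.3 (Cpeb4) to 92.6 (Ptges3) of the coding genes tested, and the KO levels at percentile 1.53 (Cldn12) to 30.2 (Pgap2). The WT level of Cpeb4 was therefore near the middle of all genes and not high, and the KO level of Pgap2 was low but not near 0.

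The authors' FPKM gave the same directions with another order of levels. They were 0.0102 in KO and 2.17 in WT for Cldn12, 0.194 and 27.9 for Ptges3, 0.0771 and 8.23 for Commd5, 0.160 and 10.4 for Calu, 0.0474 and 3.20 for Cpeb4, 0.247 and 10.8 for Pank1, 0.0983 and 3.33 for Tmed2, 0.773 and 24.2 for Acp1 and 0.167 and 2.68 for Pgap2. The length by which the authors divided, which follows from count, total and FPKM, had a median ratio of 1.00 to the summed length of all coding transcripts of a gene and of 1.71 to the longest one (10958 genes with over 20 counts in WT). This length was close to the sum for Cldn12 (14806 bases against 14704), Ptges3 (3509 against 3559), Commd5 (1957 against 1957, more than its locus of 1396), Tmed2 (4609 against 4439) and Pgap2 (12214 against 12383), and below it for Calu (10848 against 12031). It was well below the sum for Cpeb4 (7967 against 13896), Acp1 (3221 against 5820) and Pank1 (5185 against 12516), and for Pank1 also below its longest coding transcript of 7414 bases. Levels in FPKM are therefore not on the scale of the levels per length above.

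How many genes share this pattern is given as a description, since the rule used these same counts. Of 4588 genes with a WT count of 202 to 1480, the range of the 9, 48 (1.05%) had 33 counts or fewer in KO, the 9 included, by counts that are not scaled. By the scaled difference, 35 of 5412 genes with at least 202 counts in WT (0.647%) were lower in KO by at least as much as Pgap2, the 9 included, and 20 of 4008 genes with at least 202 counts in KO (0.499%) were higher in KO by as much. The genes closest to the median of the 9 in scaled log2 CPM over both libraries were Fyttd1 (12 counts in KO and 351 in WT), Dnajb2 (14 and 445), Pcmtd2 (10 and 308), Sirpa, a receptor of macrophages (15 and 357), and Hadhb, an enzyme of mitochondrial fat oxidation (7 and 291), at a Euclidean distance of 0.399 to 0.595.

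**Figure D3:**
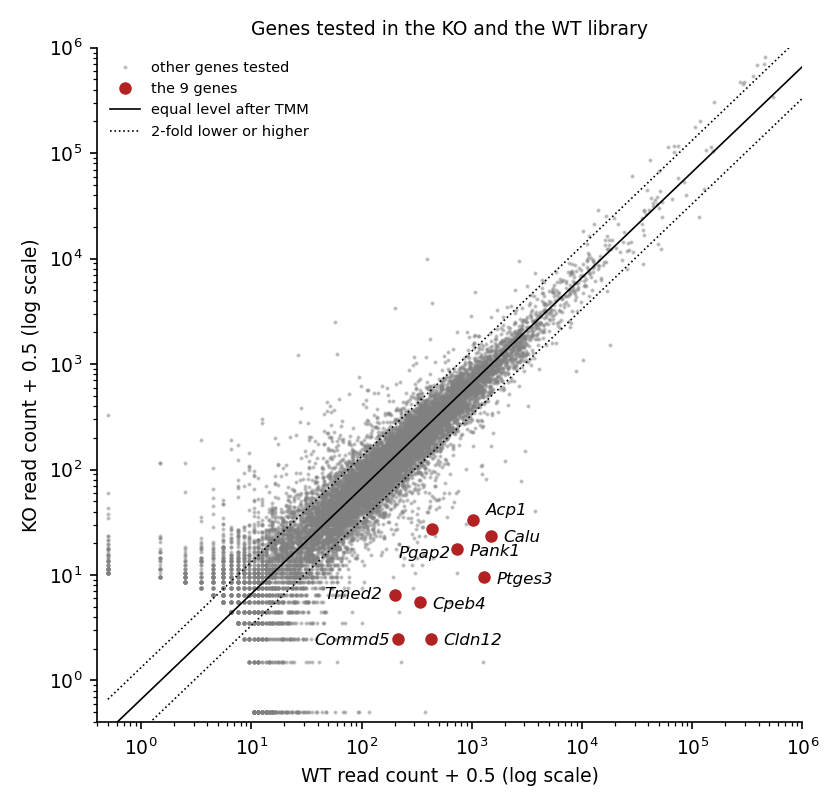
Read count in KO against read count in WT for the genes tested, each with 0.5 added, on log axes, with the 9 genes in red. The solid line marks an equal level after TMM scaling and the dotted lines a 2-fold difference, and the 9 genes lie below the lower dotted line.

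The loci of the 9 genes lie on 8 chromosomes. Of the 3 nearest tested genes on each side of each one, 54 in all, 4 were at least 2-fold lower (7.41%, against 9.94% of genes tested). At least 2-fold higher were 8 of the 54, where 9.46% of genes tested were higher. The median log2 fold change of the 54 was 0.01, with a range of -1.68 to 3.25. With total counts 13 of the 54 were lower (24.1%, against 26.6%). With total counts 4 of the 54 were at least 2-fold higher, as were 624 of the 13561 genes tested.
Nearest to Acp1 is Sh3yl1, 56 bases away on the opposite strand, with 49 counts in KO and 98 in WT (-0.40), and on the other side is Tmem18, with 79 and 138 (-0.21). Nearest to Pgap2 are Nup98, 88 bases away on the opposite strand, with 32 and 24 counts (0.99), and Rhog, with 153 and 267 (-0.21). On the TMM scale Nup98 lay just under a 2-fold difference, with an interval of 0.20 to 1.83, and with total counts Sh3yl1 was just past 2-fold lower, at -1.002.
Tmed2 lies between Ddx55, 2.36 kb away with 170 and 207 counts (0.31), and Rilpl1, with 23 and 37 (-0.09). Commd5 lies between Rpl8, a ribosomal protein gene 2.77 kb away with 2007 and 4363 counts (-0.53), and Zfp7, with 73 and 109 (0.01). Ptges3 lies between Atp5b, of the mitochondrial ATP synthase, 6.00 kb away with 1270 and 3568 counts (-0.90), and Naca, with 929 and 1535 (-0.13).
Cldn12 lies between Gtpbp10, 22.5 kb away with 131 and 180 counts (0.13), and Cdk14, with 6 and 9 (0.01). Pank1 lies between Kif20b, with 92 and 174 (-0.33), and Slc16a12, with 284 and 461 (-0.11). Calu lies between Hilpda, with 40 and 60 (0.01), and Atp6v1f, with 544 and 870 (-0.09). On the TMM scale the nearest neighbours of Cpeb4 were the only ones past 2-fold among these 18 genes (11.1% lower, against 9.94% of genes tested). These were D630024D03Rik, with 5 and 17 counts (-1.11, -2.97 to 0.32), and Snrnp25, 270 kb away, with 26 and 127 (-1.68, -2.36 to -1.08). The interval of D630024D03Rik includes 0. With total counts 5 of the 18 were at least 2-fold lower (27.8%, against 26.6% of genes tested).

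**Figure D4:**
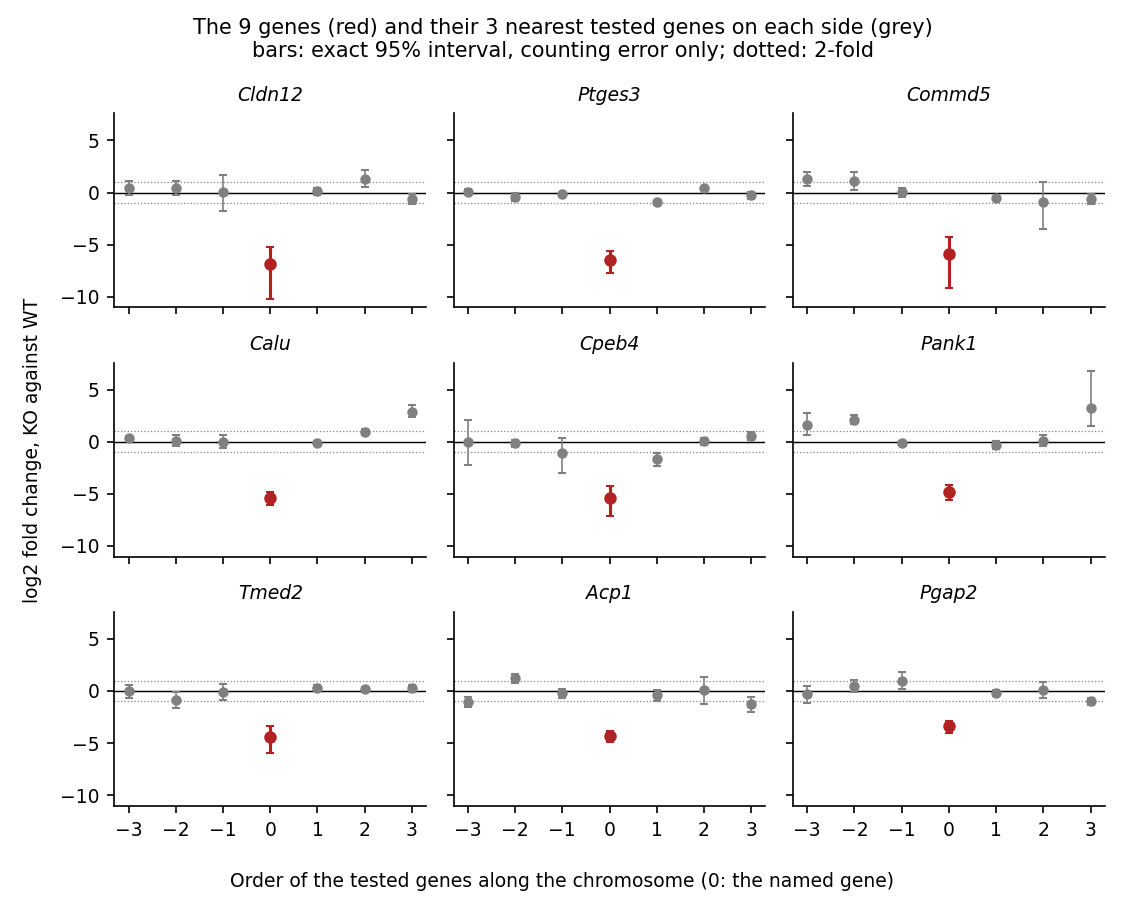
log2 fold change of each of the 9 genes (red, position 0) and of its 3 nearest tested genes on each side (grey), by order along the chromosome, with exact 95% intervals for counting error. The neighbours lie between -1.68 and 3.25, and dotted lines mark a 2-fold difference.

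Genes listed by the authors that overlap one of the 9 took few or no reads. Opn1sw, a cone opsin, overlaps 440 bases of Calu on the opposite strand and had 4 counts in KO and 0 in WT. Alkal2, listed by the authors as Fam150b, overlaps 529 bases of Acp1 on the opposite strand and had 0 counts in both libraries. Neither count comes near the difference in Calu or Acp1. Whether reads were counted by strand is not given in the sources used here, and without strand reads within these overlaps cannot be told apart. In GENCODE M21 Gm49527 covers most of Commd5, Mir107 lies within Pank1 and AC139579.1 lies within Pgap2, each on the same strand. None of these is among the genes listed, so they have no counts here and their reads are not known.
To see which reads could also fit another gene, each longest coding transcript was cut into words of 51 bases, and the share of words found in transcripts of other genes was taken. It was 0 for Cldn12, Calu and Cpeb4 and 0.136% for Pank1. It was 13.0% for Acp1 (largest part with the pseudogene Gm1866), 22.2% for Ptges3 (Ptges3-ps), 25.7% for Pgap2 (AC139579.1), 27.5% for Tmed2 (Gm10698) and 89.7% for Commd5 (Gm49527). None of these named partners is among the genes listed. Gm1866, Ptges3-ps and Gm10698 lie on other chromosomes, so the counts of Acp1, Ptges3 and Tmed2 are uncertain by how shared reads were assigned. Gm49527 and AC139579.1 instead overlap Commd5 and Pgap2 at the same place and on the same strand. Their shared words come from that overlap, and reads of these transcripts may be within the counts of Commd5 and Pgap2.

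Calu lies on the chromosome of Mir182, 789 kb from it, and this window was looked at after that had been seen. Of 17 other tested genes within 1 Mb of Mir182, 1 was at least 2-fold lower (5.88%, against 9.94% of genes tested), 2 were at least 2-fold higher (11.8%, against 9.46%), and the median log2 fold change was 0.11. The lower one was Klhdc10, an adaptor of a ubiquitin ligase, 236 kb from Mir182, with 53 counts in KO and 552 in WT (-2.78, -3.22 to -2.38). The higher ones were Irf5, an interferon regulatory factor, with 151 and 30 counts (2.90), and Ahcyl2, with 91 and 20 (2.74). Nrf1, 12.5 kb from Mir182, was at 101 and 137 counts (0.15), and Ube2h, 45.3 kb away, at 360 and 518 (0.07). The genes closest to the targeted locus thus differed by less than 2-fold. The other 8 genes lie on other chromosomes.

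**Figure D5:**
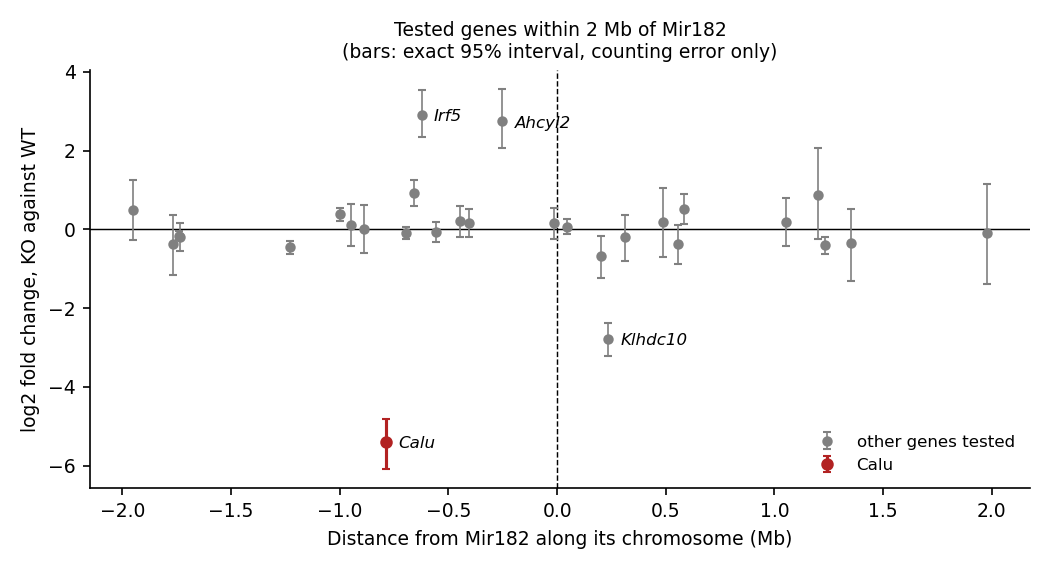
log2 fold change of tested genes by their distance from Mir182 (Mb) along its chromosome, with exact 95% intervals for counting error and Calu in red. Calu lies at -5.39 and 789 kb from Mir182, and Klhdc10, Irf5 and Ahcyl2 are the other genes within 1 Mb past 2-fold.

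The 9 genes were also described by properties that did not choose them. The G and C content of the longest coding transcript had a median of 45.0% (39.3% for Cpeb4 to 55.7% for Commd5), against 50.1% over 12544 genes tested with a coding transcript. This median of the 9 lay just under the lower quartile of those genes, 45.4%. Its length had a median of 3066 bases (1037 for Commd5 to 7414 for Pank1), against 3080. In the authors' gene ontology annotation 4 of the 9 (Calu, Cpeb4, Tmed2 and Pgap2) were assigned to the endoplasmic reticulum, as were 8.39% of genes tested, 5 to the endomembrane system (19.2% of genes tested) and 6 to membrane (41.3%). These shares are given as a description of 9 chosen genes.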

How the data were processed

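Poly(A) RNA of mouse liver was measured in 1 KO and 1 WT library. The authors deposited raw read counts per gene, with total counts of 13247497 (KO) and 13163348 (WT), and FPKM, which they computed from those counts. The submitters' processing notes name HISAT2 2.0.4, StringTie and edgeR and a human genome build, although the identifiers and coordinates are those of mouse GRCm38.

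Counts were scaled by TMM in edgeR 4.0.16 (R 4.3.3). Genes whose counts in both libraries sum to at least 10 were tested, which here means compared at a 2-fold threshold. Log2 fold changes used a prior count of 0.5 and have exact 95% binomial intervals, for counting error only. With 1 library per genotype no replicated count test could be made and no p-value is given. Tables were made with scipy 1.17.1, numpy 2.4.6 and pandas 2.3.3 (Python 3.11.15), and figures with matplotlib 3.10.9. The steps were tested on simulated data.

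The 9 genes and the gene lists were chosen with earlier results of these data known. Named genes were the 9, listed genes that overlap them, the nearest tested gene on each side, up to 4 genes of each list with at least 100 counts in the higher library by size of log2 fold change, paralogs with at least 100 counts, and the 5 protein-coding genes most like the median of the 9. Hsp90ab1, Hsp90b1, Cdc37, Rcn1, Rcn2, Rcn3, Pgap1, Pgap3, Cldnd1, Ccdc22, Ccdc93, Cpeb1, Cpeb3, Ppcdc, Dcakd and the genes near Mir182 were named after their values were seen or for their role. Neighbours were ordered by the midpoint of their span. Promoters and the miRNA are from RefSeq (GRCm38.p6), transcripts from GENCODE M21.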

Additional observations from a re-analysis of the deposited data

How the results depend on the processing

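All 9 genes kept their direction and stayed past 2-fold under scaling by total counts, by DESeq2 size factors (DESeq2 1.42.0) and by the upper quartile, with the authors' FPKM and a pseudocount of 0.1, and with a prior count of 5. Their 47 values under these alternatives, and with overlapping listed genes summed in for Calu and Acp1, ran from -7.41 to -3.23, and 45 lay within the counting interval of the value reported. The exceptions were Cldn12, at -4.36 with FPKM, whose low KO value the pseudocount raises, and Acp1, at -4.94 with total counts, which carry the shift of all genes. Summing with listed genes of shared sequence gave no value, since no listed gene shares at least 10% of the words of any of the 9. Genes lower by at least 2-fold numbered 3605 with total counts, 2934 with FPKM, 2752 at a minimum of 1 count and 766 at a minimum of 50, against 1348. Genes higher numbered 624, 405, 2289 and 642, against 1283. Lower neighbours numbered 13 of 54 with total counts, 2 of 18 for the nearest gene on each side and 8 of 90 for the nearest 5, against 4 of 54, and lower list genes 35 with total counts, against 9. No paired analysis was possible because the genotypes are represented by single libraries, and no replicate could be left out. KO counts of 2 for Cldn12 and Commd5 limit their fold changes most: 3 counts or fewer are taken as the floor.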
